A study of Mus musculus with 6 samples.

Results

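Foxa1, Foxa2, Foxa3, Gata6 and Hnf4a are 5 transcription factor genes of the foregut endoderm, taken by name for this account. They are 5 of the 31028 genes of the single-cell RNA table and 5 of the 8269 genes of each single-cell ATAC table, where all 5 are listed. The study compared embryonic pancreas of C57BL/6 mice with an intact Ptf1a gene (Ptf1a+/+, called WT) and of embryos homozygous for a deletion in an enhancer of Ptf1a (called KO). Ptf1a encodes a transcription factor that the early pancreas needs. At embryonic day 10.5 (E10.5), multipotent pancreatic progenitor cells (MPCs) were dissected by hand and pooled, 5 to 9 embryos a dataset, for RNA and, from nuclei, for ATAC, in which a transposase cuts where chromatin is open. At embryonic day 13.5 (E13.5) whole pancreas, pooled from 6 embryos a dataset, was used for ATAC alone. Each of the 6 groups (RNA E10.5 WT and KO, ATAC E10.5 WT and KO, ATAC E13.5 WT and KO) is 1 library of pooled embryos. No difference below therefore has a replicate error or a test, and every statement compares libraries. Intervals are 95% intervals (exact Poisson for counts, Clopper-Pearson for shares, exact conditional for ratios) and cover counting error only.

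The Foxa proteins are forkhead factors that can bind closed chromatin and open it, and are therefore called pioneer factors. Foxa1 and Foxa2 act early and in overlapping ways in the foregut, upstream of liver, lung and pancreas, and Foxa3 joins them in the liver. Gata6 is a zinc finger factor of endoderm and of mesoderm that takes part in pancreas formation together with its relative Gata4. Hnf4a is a nuclear receptor that drives genes of hepatocytes, gut and endocrine pancreas.

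In GRCm38, the build that corresponds to the mm10 named in the submitters' processing notes, Foxa1 lies on the minus strand of chromosome 12 from 57540628 to 57548029. Foxa2 lies on the minus strand of chromosome 2 from 148042877 to 148046969, and Hnf4a on the plus strand of the same chromosome from 163506811 to 163572907. Foxa3 lies on the minus strand of chromosome 7 from 19013283 to 19023539. RefSeq gives the Foxa genes between 2 and 3 exons and Hnf4a 10 or 11. Ttc6 overlaps Foxa1 and Hnf4aos overlaps Hnf4a. Whether reads were counted by strand is not given in the sources, so reads of such pairs might not be told apart. Ttc6 held 2 UMIs in the WT and 11 in the KO kept cells, and Hnf4aos 0 and 1.

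RefSeq (GRCm38.p6) lists promoter windows for Foxa1, Foxa2, Foxa3 and Hnf4a, with 250 bases before each transcript start. The stretches outside annotated exons are shown for 1 window of each of the 3 genes with a match. Foxa2 has 3 windows, of which the one with most matches is shown; another holds an ONECUT match 214 bases before its start, and 1 holds none. Capitals mark a match, on either strand, to one of 5 short motifs. The letters searched were TGTTTAC for forkhead factors (FOXA), GTTAAT for HNF1, AGATAA for zinc finger factors of the Gata family, ATCAATA for ONECUT, and CAAAGTCCA for HNF4, which had no match in any member's stretch. The Foxa1 stretch, chr12:57546122-57546361 on the minus strand, lies inside the gene and upstream of a shorter transcript. Its FOXA match, GTAAACA, starts 141 bases before that start. The Foxa2 stretch, chr2:148045465-148045714 on the minus strand, also lies inside its gene, with a Gata family match 183 bases and an HNF1 match, ATTAAC, 176 bases before the start; these matches lie next to each other. The Hnf4a stretch, chr2:163506607-163506807 on the plus strand, lies before the gene. It holds an ONECUT match 59 bases before the transcript start from which RefSeq's window is drawn, which is not the gene's first annotated base.
Foxa1: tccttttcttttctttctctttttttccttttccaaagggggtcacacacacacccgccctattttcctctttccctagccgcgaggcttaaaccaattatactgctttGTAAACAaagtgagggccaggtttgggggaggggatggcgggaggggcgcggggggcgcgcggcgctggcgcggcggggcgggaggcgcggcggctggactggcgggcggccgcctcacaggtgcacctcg
Foxa2: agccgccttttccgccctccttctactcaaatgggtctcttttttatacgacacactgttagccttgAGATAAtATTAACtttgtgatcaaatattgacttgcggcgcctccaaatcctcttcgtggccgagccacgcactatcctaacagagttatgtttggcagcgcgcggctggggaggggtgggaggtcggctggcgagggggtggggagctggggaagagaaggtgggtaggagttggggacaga
Hnf4a: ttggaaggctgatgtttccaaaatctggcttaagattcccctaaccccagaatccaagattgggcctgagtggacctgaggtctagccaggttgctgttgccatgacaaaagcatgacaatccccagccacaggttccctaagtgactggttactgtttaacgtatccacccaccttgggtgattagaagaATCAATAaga

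Of 32851 such windows in the genome, 3.17% hold the FOXA letters, 6.43% the HNF1 letters, 9.99% the Gata family letters, 1.86% the ONECUT letters and 0.384% the HNF4 letters. These matches are letters in a window and no binding was measured.

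The RNA libraries held 1104 WT and 815 KO barcodes, of which 451 and 369 had at least 1000 detected genes and were kept, with medians of 6700 and 9856 UMIs (unique molecular identifiers, counts of captured RNA molecules). The ATAC tables hold 838 WT and 700 KO cells at E10.5 and 2314 and 602 at E13.5. The WT and KO libraries share 1 barcode in the RNA table, 0 in the E10.5 ATAC table and 2 in the E13.5 ATAC table. Ptf1a itself had 142 UMIs in the kept WT cells and 0 in the kept KO cells. The month named in the E13.5 barcodes differs between WT and KO, so at that stage the month cannot be told apart from the genotype. Classes are clusters of cells named from marker genes, and all names were rebuilt here. Cluster 4 goes against its markers: cluster 4 (28 WT and 46 KO cells), led by the mesenchyme genes Barx1 and Pdgfra, held 21454 and 15294 CPM of endocrine markers (UMIs of the markers scaled to a common total of 1e6), beside 20936 and 17069 in the endocrine-like cluster 2. It also held 5 of the 11 called doublets, and is called by its number. The name of the hepatobiliary-like cluster 5 is also loose, with 5 of 11 measured markers raised 2-fold over the other cells. Its 12 hepatobiliary markers summed to 3049 CPM in WT and 3900 in KO. That is below the endocrine-like clusters 2 (5665 and 4965) and 6 (12284 and 8526), and above cluster 1 (1055 and 2657). In cluster 2 the marker Ttr alone had 5152 and 4504 CPM. The names of the mesenchyme-like cluster 0 and the pancreatic epithelium-like cluster 1 are loose as well, with values given below.

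Across the RNA classes the 5 genes did not share one pattern. Foxa2 was highest in the endocrine-like clusters of both libraries. In WT it stood at 247 CPM (182 to 329) in cluster 6, led by the hormone genes Ghrl, Cartpt and Ins1. It stood at 198 CPM (161 to 242) in cluster 2, led by Chgb and by Neurog3, which starts the endocrine programme. In KO the values were 238 (192 to 292) and 241 (210 to 275). The intervals of these endocrine-like clusters overlapped each other and lay above that of the next class in each library. The pancreatic epithelium-like cluster 1, led by Nepn, Spp1 and the tip gene Cpa1, had 114 CPM in WT and 143 in KO, and cluster 4 had 112 and 144. The lowest level, 51.8 CPM in WT and 55.1 in KO, was in the mesenchyme-like cluster 0.

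Gata6 was highest in the hepatobiliary-like cluster 5, led by Sox17, Itih2 and Hhex, at 145 CPM (99.0 to 204) in WT and 161 (129 to 198) in KO. It was lowest in the endocrine-like cluster 2 in both libraries, at 36.8 CPM in WT and 46.6 in KO. The mesenchyme-like cluster 0 came next to the top in WT with 106 CPM (85.2 to 130), and the pancreatic epithelium-like class in KO with 108 (84.3 to 137). Neighbours in this order overlapped in their intervals throughout, and only distant classes were apart.

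Foxa3 stood at 36.2 CPM in the hepatobiliary-like and 30.8 CPM in the pancreatic epithelium-like class of WT, its highest levels there. In KO the pancreatic epithelium-like class was first with 56.5 CPM, followed by the unnamed cluster 3 with 49.4 (5 UMIs) and the hepatobiliary-like class with 45.1. In the WT cluster 6 no Foxa3 UMI was found in 13 cells, which allows up to 19.4 CPM. Hnf4a had few UMIs in every class. Its highest WT level, 31.6 CPM in cluster 6, came from 6 UMIs. Its highest KO level, 49.4 CPM in the unnamed cluster 3, came from 5 UMIs. All neighbouring intervals in the order of Hnf4a overlapped. The lowest class in each library, cluster 4 (up to 10.6 CPM in WT and 15.4 in KO), lay apart from the highest.

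Foxa1 was sparse in WT, with 43 UMIs in all kept cells. Its WT level lay between 2.70 CPM in cluster 3 and 26.3 CPM in cluster 6, and all neighbouring intervals overlapped. In KO the pancreatic epithelium-like class stood first with 72.2 CPM (52.9 to 96.3), followed by the mesenchyme-like cluster 0 with 39.6 (25.1 to 59.4). The other KO classes lay at 18.9 CPM or below, and cluster 3 had 0 UMIs, which allows up to 36.4 CPM.

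**Figure D1:**
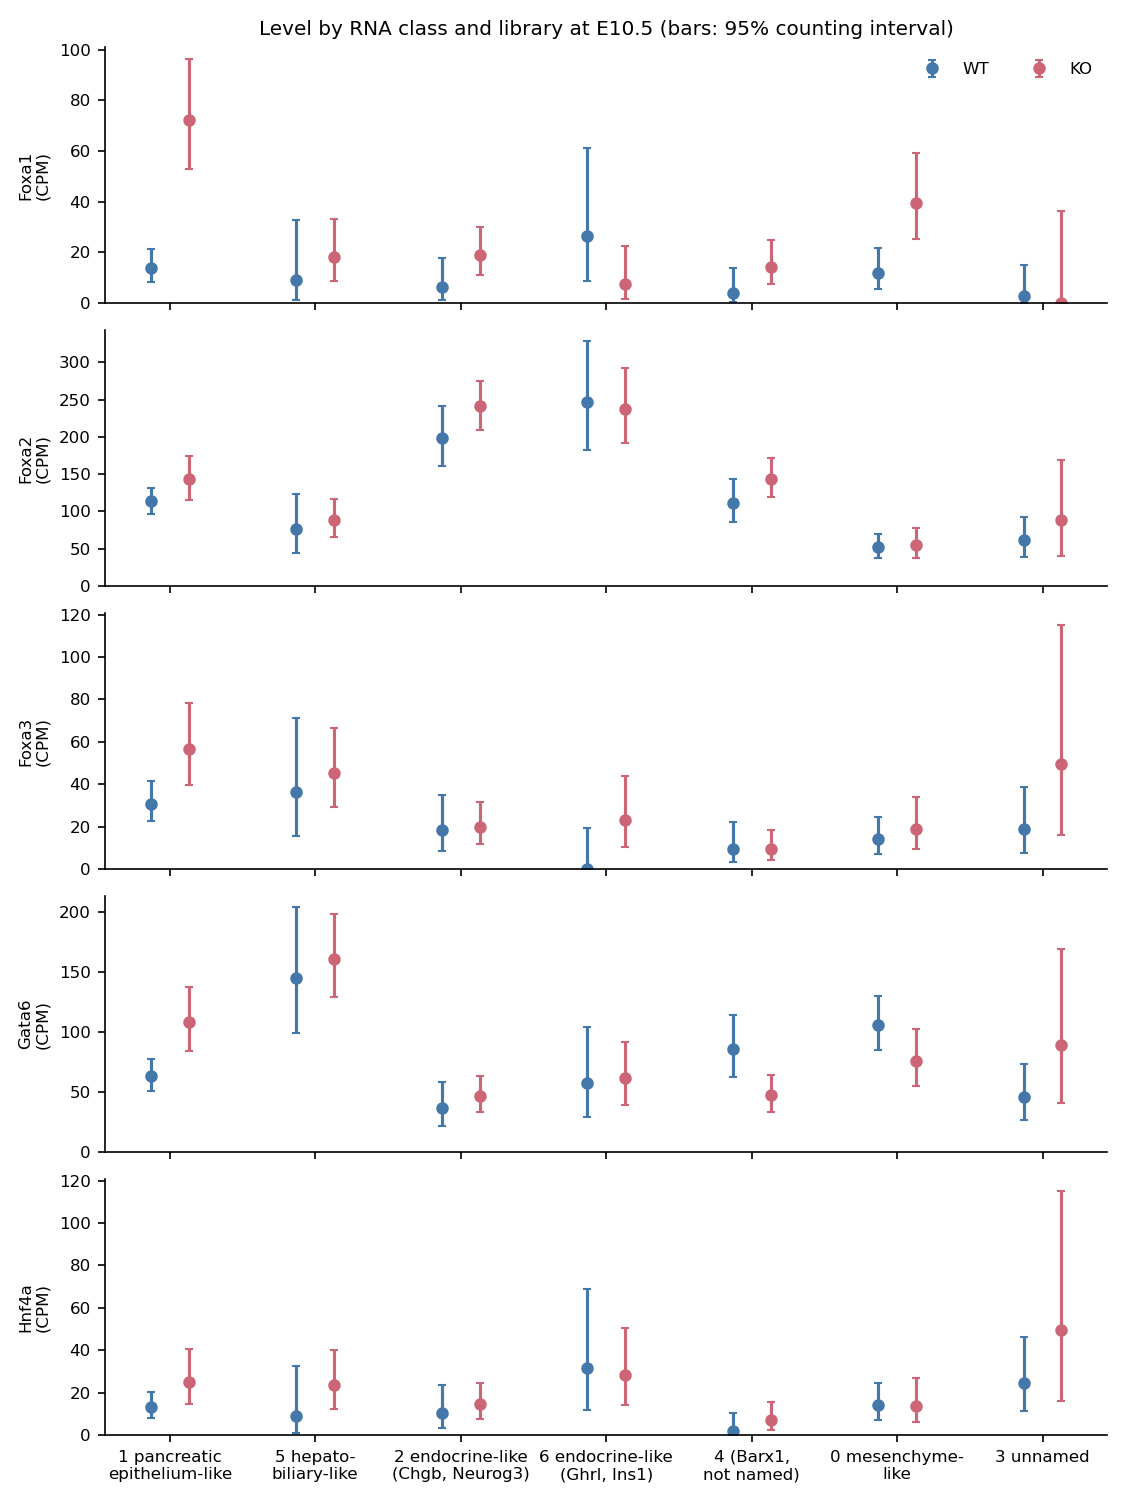
RNA level of each gene (CPM, y axis from 0) in 7 classes of E10.5 cells (x axis), WT in blue and KO in red. Points are sums over all cells of a class and bars are 95% counting intervals. WT and KO intervals are apart for Foxa1 (13.7 and 72.2 CPM) and Gata6 (63.1 and 108) in the pancreatic epithelium-like class and for Foxa1 in the mesenchyme-like class (11.8 and 39.6).

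The pancreatic epithelium-like class (109 WT and 38 KO cells) held 3 of the members' higher KO levels whose ratio interval lay above 1. Foxa1 counted 20 UMIs in WT and 46 in KO, or 13.7 CPM (8.37 to 21.2) and 72.2 CPM (52.9 to 96.3). The KO level was 5.27 times the WT level (3.05 to 9.40). On the log2 scale with 10 CPM added, which understates changes of low genes, the difference was 1.79. Of the 5823 genes with at least 50 UMIs in this class, 15 had a higher value, and the median over all of them was 0.17. Foxa1 was the 1 member more than 2-fold higher in KO, of the 4 members with enough UMIs. Over all genes 1.92% were 2-fold higher and 1.01% 2-fold lower, and no member was 2-fold lower.

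Gata6 and Foxa3 were also higher in the KO library of this class, by less. Gata6 went from 63.1 CPM (50.8 to 77.3; 92 UMIs) in WT to 108 CPM (84.3 to 137; 69 UMIs) in KO, a ratio of 1.72 (1.24 to 2.37). Foxa3 stood at 30.8 CPM (22.5 to 41.3; 45 UMIs) in WT and 56.5 (39.6 to 78.2; 36 UMIs) in KO, a ratio of 1.83 (1.15 to 2.90). Both log2 differences were 0.70, a value that 92.8% and 93.0% of the genes stayed below. Foxa2 had 166 UMIs in WT and 91 in KO, and its ratio of 1.26 (0.961 to 1.63) could not be told from 1. Hnf4a had 19 and 16 UMIs, too few for the comparison over all genes, and a ratio of 1.93 (0.928 to 3.96).

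**Figure D2:**
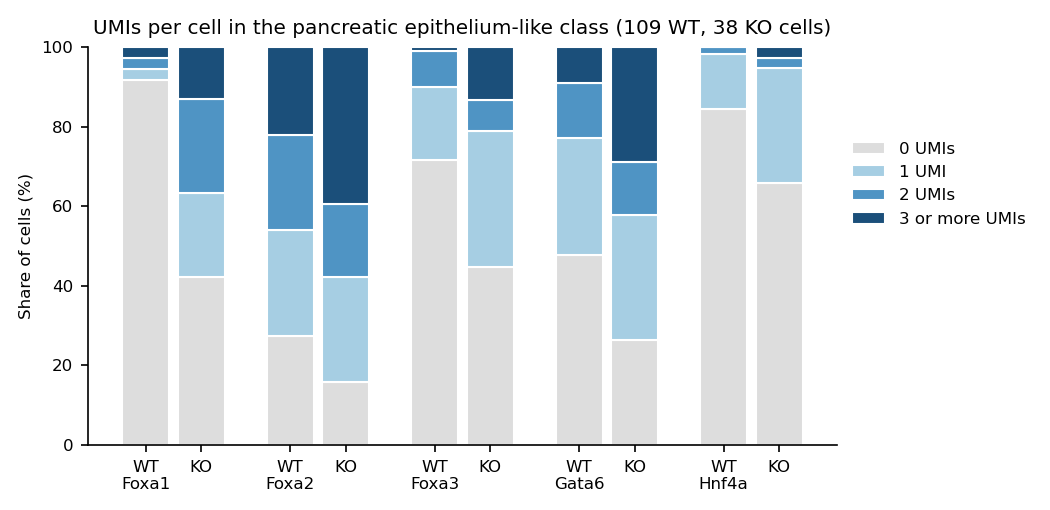
Share of cells (y axis, percent) of the pancreatic epithelium-like class with 0, 1, 2 or at least 3 UMIs of each gene, for 109 WT and 38 KO cells. The part with 0 Foxa1 UMIs is 91.7% in WT and 42.1% in KO; cells of the KO library hold more UMIs in all, with medians of 16205 against 12928.

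Cell by cell, Foxa1 UMIs were found in 9 of 109 WT cells (8.26%, 3.85 to 15.1) and in 22 of 38 KO cells (57.9%, 40.8 to 73.7). In the mesenchyme-like cluster 0, 3.92% of WT and 16.8% of KO cells had a Foxa1 UMI at median depths of 2454 and 2535 UMIs. That cluster is not free of endodermal markers, and its name is loose. Its hepatobiliary markers summed to 1106 CPM in WT and 1611 in KO, and its pancreatic markers to 513 and 442. Its mesenchyme markers summed to 1909 and 2094. After each cell was thinned to 2000 UMIs, the shares in the pancreatic class were 3.74% (4 of 107, 1.03 to 9.30) and 13.9% (5 of 36, 4.67 to 29.5). These intervals overlapped. The single cell with most Foxa1 UMIs held 5 of the 20 in WT and 6 of the 46 in KO, so no single cell made the difference. All 9 of the WT cells with Foxa1 also had Foxa2, as did 19 of the 22 KO cells. Foxa2 was also found in 70 of the 100 WT and 13 of the 16 KO cells without Foxa1, which were shallower (medians of 12717 and 11949 UMIs against 16678 and 19632 in the cells with Foxa1). As a share of all Foxa UMIs in this class, Foxa1 made up 8.66% (5.37 to 13.1) in WT and 26.6% (20.2 to 33.8) in KO. These shares compare the libraries and say nothing of the genes' relative transcript numbers. Cells with 0 UMIs of all 5 genes were 14 of 109 in WT and 2 of 38 in KO.

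The differences in this class depended on how it was drawn, first for Foxa1. With at least 2000 detected genes a cell, the class divided in 2 clusters. The better match held 82 WT cells and 1 KO cell, with 4 and 0 Foxa1 UMIs, and its log2 value was -0.49. The second, with 32 WT and 42 KO cells, gave 28.1 and 70.7 CPM, a ratio of 2.52 (1.42 to 4.71). Both together (114 and 43 cells) gave 12.9 and 69.6 CPM. The KO cells thus lay almost all beside a minority of the WT cells, and that minority had more Foxa1 (28.1 CPM) than the larger WT cluster (4.09 CPM). At clustering resolutions of 0.3 and 0.8 the levels were 13.6 and 71.8, and 15.8 and 69.9 CPM. The values at resolution 0.8 are of the best-matching cluster alone, with 57 WT and 40 KO cells. The Gata6 ratio was 1.38 (0.968 to 1.97) there and 1.27 (0.876 to 1.87) in the second of the 2 clusters above, so its interval then held 1. With 2 clusters of resolution 0.8 together (110 and 43 cells) the Gata6 ratio was 1.52 (1.10 to 2.09). The Hnf4a ratio was 3.97 (1.39 to 13.9) in the single cluster of resolution 0.8, from 5 WT and 16 KO UMIs. It was 3.12 (1.02 to 12.7) in that second cluster, from 4 and 17 UMIs. With the 5 genes allowed in the clustering it was 4.56 (1.59 to 15.9), from 5 and 16 UMIs. In these settings its interval lay above 1. With the 2 clusters of resolution 0.8 together it was 1.69 (0.814 to 3.47), and the interval held 1.

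Markers of other cell types also differed between the libraries of this class. Summed over the 12 hepatobiliary markers the level was 1055 CPM in WT and 2657 in KO, with Sox17 at 0 in KO. The 19 endocrine markers summed to 110 and 337 CPM, with Ins1, Ins2, Myt1 and Pax4 at 0 in both libraries; Chgb alone had 3.43 and 148 CPM. The 5 epithelial keratin and adhesion genes summed to 2059 and 3846 CPM, and the 13 mesenchyme markers to 460 and 535. The 10 pancreatic epithelium markers summed to 1752 and 1428, with Ptf1a, Cpa1 and Rbpjl among those at 0 in KO. Of 8 pancreatic markers with enough UMIs, 5 were more than 2-fold lower in KO (Cpa1, Ptf1a, Clps, Mnx1 and Nkx6-1) and 1 higher (Nkx6-2). Of 8 hepatobiliary markers 5 were more than 2-fold higher and none 2-fold lower. The endocrine-like cluster 2 had pancreatic sums of 1610 in WT and 1407 in KO. The name of this class is therefore loose, most of all for its KO cells. The part of these markers in the result was not tested.

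Genes that work beside these factors were counted from lists. Of 14 endoderm factors 9 had enough UMIs in this class. Onecut2 (172 CPM in WT, 936 in KO), Hhex (45.2 and 157) and Gata4 (21.9 and 54.9) were more than 2-fold higher in KO, and none was 2-fold lower. Onecut2 and Hhex are factors of liver and pancreas, and Gata4 is the closest relative of Gata6 in the foregut. The list's median log2 difference was 0.12 against 0.17 over all genes. Prox1, a factor of liver and pancreas progenitors, was lowest at -0.55.

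Liver-type plasma protein genes are classic targets of Foxa and Hnf4a in hepatocytes. Of 17, 9 could be compared, with a median of 0.63. Apom (21.9 CPM in WT, 87.9 in KO), Rbp4 (799 and 1866) and Ttr (259 and 581) were more than 2-fold higher, the first an apolipoprotein and the others carriers of vitamin A and thyroid hormone. Vtn, which encodes vitronectin, was more than 2-fold lower, at 349 CPM in WT and 127 in KO. In these cells Rbp4 and Ttr were not particular to the hepatobiliary-like class. Rbp4 had 6685 CPM in WT and 3860 in KO in the endocrine-like cluster 2, against 195 and 350 in cluster 5. Ttr had 5152 and 4504 in cluster 2, against 1425 and 1656 in cluster 5. Apom was alike in both, with 69.5 and 56.6 against 63.3 and 68.6. Of the nuclear receptors and HNF4 partners 3 of 9 could be compared, and Nr2f2, an orphan receptor, was higher (54.8 and 171 CPM). Of the other forkhead genes 3 of 12 could be compared and none passed the fold, with Foxp1 highest at 0.65. Of the hedgehog genes 2 of 9 could be compared, and neither Ptch1 (0.22) nor Smo (0.54) passed it. Zfpm1, a cofactor of GATA proteins, had 0.34 and was, beside Gata4, the other comparable gene of 7 in that family list.

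In the classes other than the pancreatic one the members' ratio intervals held 1, apart from Foxa1 in cluster 0 and Gata6 in cluster 4. Some differences there were larger but rested on few UMIs. Foxa3 in cluster 6 had 0 UMIs in WT and 9 in KO, a log2 difference of 1.72. Foxa1 was lower in KO in cluster 6, with 5 and 3 UMIs and a ratio of 0.292 (0.0453 to 1.50). In the mesenchyme-like cluster 0, Foxa1 had 10 UMIs in 153 WT cells and 23 in 101 KO cells, or 11.8 and 39.6 CPM, a ratio of 3.36 (1.54 to 7.91). Of its 17 KO cells with Foxa1, 12 also had Foxa2, against 0 of 6 in WT. Those 17 cells had a median of 13781 UMIs against 2322 in the rest of that cluster and library, and in that cluster the same 5 keratin and adhesion genes summed to 751 CPM in WT and 1275 in KO. The part of these in the result was not tested. In the endocrine-like cluster 2 Foxa1 had 3 and 17 UMIs, with a ratio of 3.08 (0.891 to 16.4).

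Gata6 was lower in KO in cluster 4, with 85.4 CPM (62.3 to 114) in WT and 47.2 (33.7 to 64.3) in KO, a ratio of 0.553 (0.352 to 0.865). In the mesenchyme-like cluster 0 it had 106 and 75.7 CPM, with a ratio of 0.714 (0.486 to 1.04). In the hepatobiliary-like cluster 5 its ratio was 1.11 (0.734 to 1.72), with 145 and 161 CPM. Over all kept cells Gata6 had 305 UMIs in WT and 317 in KO, a ratio of 1.06 (0.906 to 1.25), so its class differences in opposite directions did not appear in the sum.

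Over all kept cells Foxa1 stood at 10.5 CPM in WT and 27.7 in KO, a ratio of 2.64 (1.84 to 3.85) and a log2 difference of 0.88. Foxa2 stood at 110 and 153 CPM, a ratio of 1.39 (1.22 to 1.57). The endocrine-like clusters 2 and 6, where Foxa2 was highest, made up 9.76% and 2.88% of the WT cells and 25.5% and 8.13% of the KO cells. Within them its ratios were 1.22 (0.953 to 1.56) and 0.963 (0.671 to 1.40). Foxa3 (20.9 and 27.9 CPM) and Hnf4a (13.1 and 17.9 CPM) had ratios of 1.33 (0.998 to 1.79) and 1.36 (0.946 to 1.98). None of the 5 passed 2-fold on the log2 scale, where 0.357% of the 10367 genes were higher and 0.270% lower.

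**Figure D3:**
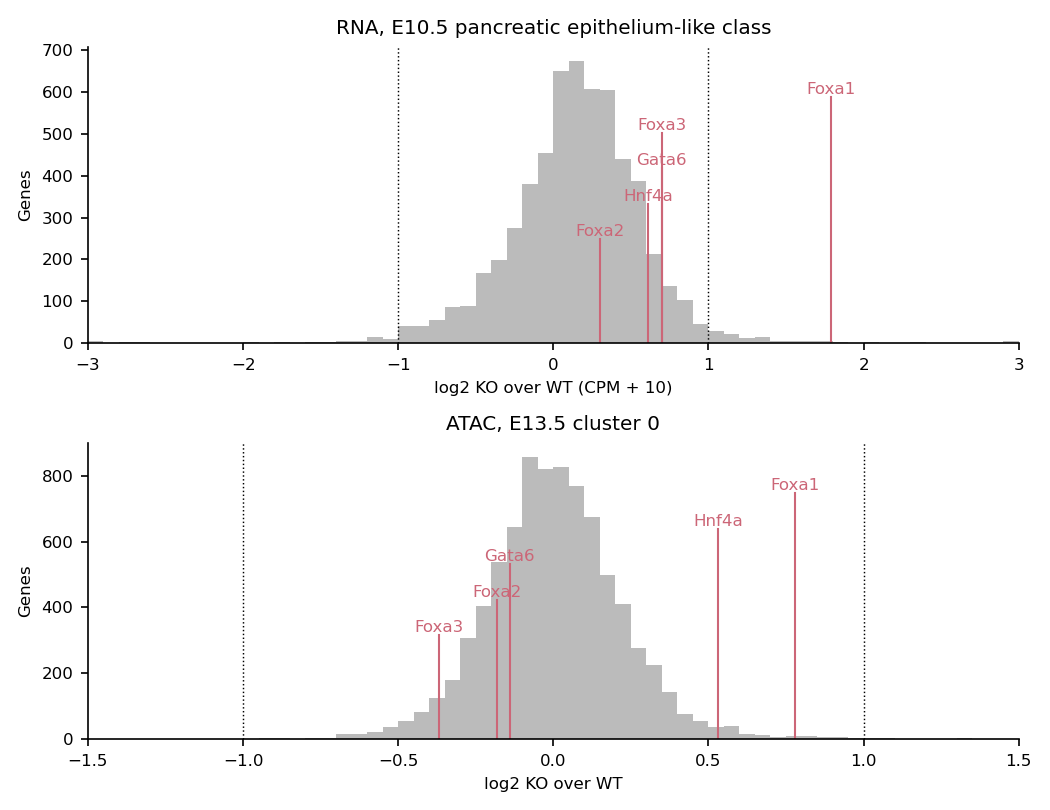
Distribution of log2 KO over WT ratios (x axis) over genes (y axis, number of genes), for RNA in the pancreatic epithelium-like class at E10.5 and for ATAC in cluster 0 at E13.5, with red lines at the 5 members and dotted lines at 2-fold. Foxa1 lies at 1.79 and 0.78, toward the upper end of both. Values beyond an axis are drawn at its end, and Hnf4a in the RNA panel has fewer UMIs than the genes counted in grey.

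The genes whose level over class and library was most like that of each member were found by Pearson's r of log2(CPM + 10), over 13 points (7 classes in 2 libraries, less the WT class with under 20 cells) and 6006 genes. Foxa2 had the closest companions, Tmem59 (0.97), Spint2 (0.94) and Tmed10 (0.94), and 22 genes above 0.9. Foxa1 was most like Sema3c (0.94), Dcbld1 (0.93) and Csnk1e (0.91). Foxa3 was most like Cldn7 (0.91), Rida (0.90) and Ap1m2 (0.89), and Gata6 was most like Cald1 (0.90), Stard4 (0.89) and Arid5b (0.88). For Hnf4a no gene passed 0.9, and the highest were Avpi1, Slc9a3r1 and Phb, all at 0.85. The points share libraries and cell sources, so these values describe the 13 points alone.

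In the ATAC tables a gene's value is a signal over its locus, scaled so that each cell sums to 10000. The fragments behind it are unknown, so no interval can be given for a mean. At E10.5 the members differed little between the libraries. Foxa1 had a mean signal of 3.91 in the WT and 4.31 in the KO library (log2 difference 0.14), and mean Foxa2 signal 5.56 and 6.27, a difference of 0.17. Foxa3 (1.44 and 1.40), Gata6 (1.97 and 1.90) and Hnf4a (1.27 and 1.27) differed by -0.04, -0.05 and 0.00. No member was past 2-fold, as were 0% of the 8219 genes upward and 0.0122% downward.

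The E10.5 ATAC clusters gave the same picture. In the unnamed cluster 0 (489 WT and 437 KO cells) Foxa1 stood at 4.15 and 4.39, and 93.0% and 96.1% of the cells had a Foxa1 signal above 0. In the endocrine-like cluster 2 (62 and 65 cells), led by Baiap3, Cryba2 and Ptprn2, Foxa2 stood at 5.92 in WT and 7.29 in KO, and Foxa1 at 3.02 and 3.63. The shallower cluster 1 (287 and 198 cells; medians of 2220 and 2310 genes above 0) had Foxa1 at 3.70 and 4.35. The log2 differences of Foxa1 were 0.08, 0.23 and 0.27 in clusters 0, 1 and 2, and none of these clusters is matched to the RNA class above.

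At E13.5 the KO library held more cells of a blood-like cluster. This cluster 3, led by the red cell genes Slc4a1 and Gypc, made up 6.05% of WT cells and 45.2% of KO cells. In it the signals of Foxa1 (0.0609 in WT, 0.144 in KO), Foxa2 (0.262 and 0.202) and Gata6 (0.0245 and 0.154) were near 0, while Foxa3 had 1.34 and 1.67. Over all cells the log2 differences were 0.00 for Foxa1, -0.86 for Foxa2, -0.21 for Foxa3, -0.93 for Gata6 and -0.20 for Hnf4a. No member passed 2-fold, where 1.24% of 8208 genes were higher and 1.36% lower. Without the blood-like cluster (2174 WT and 330 KO cells) the differences were 0.72, -0.13, -0.44, -0.26 and 0.34 in the same order. The lower Foxa2 and Gata6 of the whole KO library thus shrank, and Foxa1 became higher.

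In cluster 0 of the E13.5 table (1099 WT and 238 KO cells), unnamed and led by Sdc4, Hoxb7 and the acinar factor gene Rbpjl, the mean Foxa1 value was 1.53 for WT and 2.63 for KO (log2 difference 0.78). It ranked 41 from the top of 8230 genes. Signal above 0 was found in 56.7% (53.7 to 59.6) of WT cells and 81.9% (76.4 to 86.6) of KO cells. Hnf4a stood at 1.15 and 1.65, a difference of 0.53 and a rank of 126 from the top. Its share of cells above 0 was 66.7% in WT and 87.0% in KO. No member passed 2-fold in this cluster, where 0.158% of genes were higher and 0.0486% lower.

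The other 3 members of this cluster were lower in the KO library, by less. Foxa3 stood at 1.68 in WT and 1.30 in KO (-0.37), Foxa2 at 4.61 and 4.06 (-0.18), and Gata6 at 1.99 and 1.81 (-0.14). Their shares of cells above 0 were all higher in KO. KO cells of this cluster also had more genes above 0, with a median of 5876 against 4253 in WT. Among cells with 3000 to 6000 genes above 0 (846 WT and 111 KO), a range chosen after the data were seen, the differences were 0.55 for Foxa1, 0.47 for Hnf4a, -0.26 for Foxa2, -0.36 for Foxa3 and -0.14 for Gata6. Within this range depth was still unequal, with medians of 4219 genes above 0 in WT and 5035 in KO. The 9 pancreatic markers listed summed to 37.8 in WT and 27.1 in KO in this cluster, the 11 hepatobiliary markers to 12.8 and 14.2, the 5 gut markers to 7.44 and 9.54, and the blood markers to 7.43 and 7.84. Their part in the result was not tested.

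The endocrine-like cluster 2 at E13.5 (374 WT and 49 KO cells) showed Foxa1 in the same direction, at 1.48 in WT and 2.26 in KO (0.61). Foxa3 stood at 1.78 and 0.947 there (-0.91), number 153 from the lowest of 8217 genes. Foxa2 (4.74 and 4.48), Gata6 (1.92 and 1.62) and Hnf4a (1.35 and 1.38) were closer. In the shallow cluster 1, with 701 WT but 43 KO cells, Foxa1 had 1.46 and 1.78 and Gata6 2.18 and 1.25.

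From the lists, Onecut2 (0.860 in WT, 2.84 in KO) and Nr2f2 (1.37 and 2.81) were more than 2-fold higher in E13.5 cluster 0, and both also had more RNA in the KO pancreatic class at E10.5. They were the 1 of 12 listed endoderm factors and the 1 of 5 nuclear receptors past the fold. Gata4 stood at 2.19 and 2.97 (0.44). None of 15 liver-type genes passed the fold, with Rbp4 highest at 0.41 and a median of 0.15. Shh, a hedgehog ligand that the early pancreas lacks, was highest of 6 hedgehog genes at 0.69. The 6 other forkhead genes lay between -0.13 and 0.09. At E10.5 no gene of these lists passed the fold in cluster 0.

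Genes next to the members served as a look at the wider locus. The neighbours found for Foxa1 and Foxa2 have no ATAC value, so this look does not cover their ATAC signal. Near Hnf4a, the gene Ttpal at 29378 bases had 0.801 in WT and 1.14 in KO (0.51) in E13.5 cluster 0, nearly the 0.53 of Hnf4a itself. R3hdml lies nearer to Hnf4a but has no ATAC value. Next to Foxa3, Irf2bp1 (3.58 and 3.12, -0.20) and Sympk (0.990 and 0.795, -0.32) were lower in KO as Foxa3 was. Gata6, a gene of 7 exons, lies on the plus strand of chromosome 18 from 11052510 to 11085636 and is overlapped by the lncRNA Gata6os. Of the nearest genes with values, Mib1 (233932 bases away) differed by -0.05 and Rbbp8 (547640 bases away) by -0.25. In the RNA of the pancreatic class at E10.5, Irf2bp1 had 56.9 CPM in WT and 87.9 in KO, and Sympk 68.5 and 86.3. The lncRNA 9030622O22Rik, 2364 bases from Foxa2, had 11.7 and 12.6 CPM, and R3hdml, 4190 bases from Hnf4a, had 0 in both libraries.

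Between the stages Foxa1 differed most of the 5 genes. The tables of the stages were scaled separately, and the dissected tissue differs, so these are differences between tables. Without the blood-like cluster, WT Foxa1 signal was 3.91 at E10.5 and 1.50 at E13.5, a log2 difference of -1.38. It was number 4 from the lowest of 8213 genes, and 0.329% of genes were 2-fold lower at E13.5. In KO the signal was 4.31 and 2.47, a difference of -0.80, number 31 from the lowest of 8229 genes, of which 0.109% were 2-fold lower. Foxa1 was thus 1 of 5 members past 2-fold in WT, against 0 of 5 in KO. With the blood-like cluster included, Foxa1 was at -1.47 in WT, and Foxa1 at -1.60 and Foxa2 at -1.36 in KO, which makes 1 and 2 of 5, where 0.402% of genes in WT and 3.64% in KO were 2-fold lower.

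Foxa2 was lower at E13.5 in both genotypes, by -0.24 in WT (5.56 and 4.69) and -0.55 in KO (6.27 and 4.28). Foxa3 differed by 0.22 in WT and -0.17 in KO, Gata6 by 0.05 and -0.15, and Hnf4a by -0.03 and 0.31. Cluster 0 of each table alone gave -1.44 in WT and -0.74 in KO for Foxa1. Onecut2 and Shh from the lists stood beside Foxa1 in WT, with -1.13 and -1.01, as did Nr2f2 with -1.38. In KO no listed gene passed 2-fold, and Onecut2 had 0.48.

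**Figure D4:**
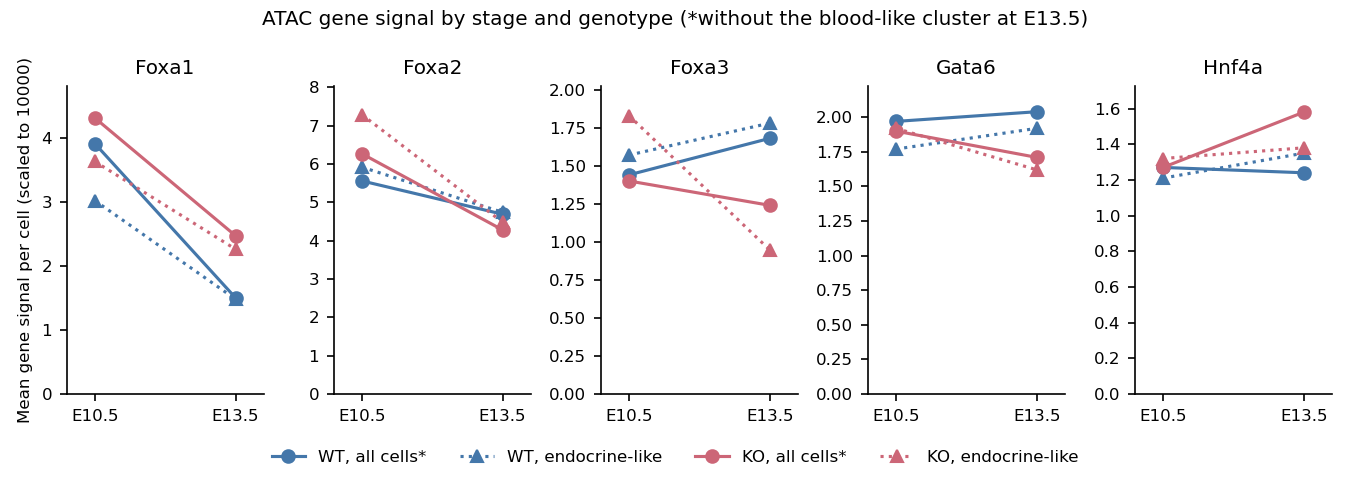
Mean ATAC gene signal per cell (y axis from 0, cells scaled to 10000) at E10.5 and E13.5 (x axis) for each gene, WT in blue and KO in red. Circles with solid lines are all cells, without the blood-like cluster at E13.5, and triangles with dotted lines the endocrine-like clusters; Foxa1 goes from 3.91 to 1.50 in WT and from 4.31 to 2.47 in KO. Each point is 1 library.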

How the data were processed

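The deposited RNA table holds UMI counts per gene and cell, as the authors deposited them. The deposited ATAC tables hold a gene signal that the authors scaled to 10000 per cell, separately for each stage; the values show this sum. The genome build is mm10, per the submitters' processing notes; the sources used here do not give the aligner, annotation, cell filters or gene signal tool. Libraries were built with 10x Genomics kits, per the labels' protocols. Barcode prefixes gave each cell's library.

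The members and gene lists were chosen with earlier results of these data known. RNA barcodes under 1000 detected genes were dropped, which left 88.0% of WT and 92.0% of KO UMIs. Doublets were called (4 in WT, 7 in KO) and kept. Clusters were made in scanpy (version 1.11.5; leidenalg 0.10.2) from 2000 variable genes, 30 components and 15 neighbours, without Ptf1a, tip genes and the 5 members, at resolution 0.5 (RNA) and 0.3 (ATAC). Names came from marker lists; the value of 1 marker is not reported here. The 5 keratin and adhesion genes were chosen after the data were seen. UMIs were summed per class and library. Log2 ratios used a pseudocount of 10 CPM and genes whose UMIs reached 50 over both libraries. ATAC ratios used mean signal of genes above 0 in at least 10% of a library's cells. Genes named were the members, the highest, lowest and past-fold (2-fold) genes of each list, the 3 most alike and neighbouring genes. The RNA ratio and ratio interval calculations were tested on simulated counts, and the other calculations were not. Alternatives were other filters, resolutions, pseudocounts, scalings, thinning to 2000 UMIs and subsets of cells.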

Additional observations from a re-analysis of the deposited data

Results flagged for a closer look

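Gata6 RNA stood in opposite directions in a pair of classes. The KO over WT ratio was 0.553 in cluster 4 and 1.72 in the pancreatic epithelium-like class, with counting intervals on either side of 1. In the best-matching cluster of resolution 0.8 the ratio was 1.38 (0.968 to 1.97), and in the second cluster of cells with at least 2000 genes 1.27 (0.876 to 1.87), so its interval then held 1. With 2 clusters of resolution 0.8 together it was 1.52 (1.10 to 2.09). Cluster 4 carries endocrine and mesenchyme markers together. The difference between the classes was not tested, since each holds 1 library per genotype.

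Foxa2 ATAC signal was higher in KO at E10.5 (log2 0.17) and lower at E13.5 outside the blood-like cluster (-0.13). Both values are small, and this difference was not tested.

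Barcodes with fewer than 1000 detected genes, used in no comparison above, still held Gata6. The 653 such WT barcodes had 31 Gata6 UMIs (55.5 CPM, 37.7 to 78.8), and the 446 KO barcodes had 25 (71.8 CPM, 46.5 to 106). Foxa1 had 2 and 7 UMIs in them.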

How the results depend on the processing

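Across 30 values, 175 alternatives were computed, 4 kinds of them added after the data had been seen. Of these, 146 stayed within the counting interval (RNA) or within 0.25 (ATAC), 28 moved further and 1 called value changed sign; 150 kept the sign and 25 did not. Signs were compared on rounded values, so a main value of 0.00 counted as changed wherever the alternative was not 0.00. This was so for Hnf4a at E10.5 and Foxa1 at E13.5 in ATAC, which had no sign to lose. The counts above include an ATAC setting without the filter on low values. That setting cannot change a member's value, so it always counts as unchanged. All values are log2. In the pancreatic epithelium-like class with at least 2000 genes a cell, where the matching cluster had 1 KO cell, Foxa1 was -0.49, Foxa2 0.70, Foxa3 -2.09 and Hnf4a -1.34. A pseudocount of 50 CPM gave Foxa1 0.94. Thinning to 2000 UMIs gave Foxa2 0.84 there, and over all kept cells Foxa2 0.76 and Hnf4a -0.43. For E13.5 ATAC, the largest cluster gave Foxa1 0.78, Foxa2 -0.18, Gata6 -0.14 and Hnf4a 0.53; leaving out the blood-like cluster gave 0.72, -0.13, -0.26 and 0.34; and the depth range gave 0.55, -0.26, -0.14 and 0.47. The share of cells above 0 gave Foxa2 -0.43, Foxa3 0.33, Gata6 -0.36 and Hnf4a 0.26, and leaving out the 10% of cells at each end of depth gave Foxa1 -0.25. Between stages in KO, leaving out the blood-like cluster gave Foxa1 -0.80 instead of -1.60, Foxa2 -0.55, Gata6 -0.15 and Hnf4a 0.31. The cause of these shifts was not tested. No paired analysis was possible because each group is 1 library.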
